A study of Arabidopsis thaliana with 4 samples.

Results

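Aquaporins are channel proteins of the major intrinsic protein family that let water, and in some members small uncharged solutes, cross membranes. In roots of Arabidopsis thaliana the members fall into 4 subfamilies named for where or how they were first found. The PIPs (plasma membrane intrinsic proteins, groups PIP1 and PIP2) carry much of the water that enters root cells, and a PIP1 reaches the plasma membrane together with a PIP2. The TIPs (tonoplast intrinsic proteins) lie in the vacuole membrane, the NIPs (NOD26-like intrinsic proteins) include channels for boric acid, arsenite and other solutes, and the SIPs (small basic intrinsic proteins) lie in the endoplasmic reticulum.

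All loci whose gene name in the tables marks a major intrinsic protein were taken, which gave 32 of the 23381 loci listed: 5 PIP1, 8 PIP2, 8 TIP, 7 NIP, 3 SIP and AT2G21020, a pseudogene of the family. Each is written with the hyphenated protein name that the files use (TIP1-2 for the symbol TIP1;2). RefSeq describes AT2G21020 as a pseudogene of NIP3-1. TIP3-1, TIP5-1, NIP4-1 and NIP7-1 were not analysed here.

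RNA from roots was sequenced in 4 libraries, 1 for each combination of 2 genotypes and 2 treatments. The wild type was Col, and the mutant was coi1-2, an allele of COI1, the F-box protein that perceives jasmonate. Both were seedlings of 6 days, about 500 for a sample, kept at pH 5.0 in 2% MGRL nutrient solution with 0 or 10 µM AlCl3. The protocol and the titles give 6 h of exposure (the titles 0 h for the libraries without Al), and the design text gives 24 h, so the time is uncertain and any time spent in solution cannot be told apart from Al. The 2 Col libraries held 7.80 M reads (without Al) and 6.93 M reads (with Al), and those of coi1-2 held 7.42 M and 7.19 M, with M for megareads. Where 4 values follow each other below, the 2 of Col come first and those of coi1-2 second, each time without and then with Al. With 1 library a group, a comparison of 2 libraries has no test.

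The pore of an aquaporin is lined by a pair of short boxes, usually asparagine, proline and alanine (NPA). Of the 31 members with a coding sequence in RefSeq, 27 had NPA in the first box and 27 in the second. The stretches below are coding exon sequence, 45 bases each, 5′ to 3′ on the gene's strand, on TAIR10.1 (RefSeq). Capitals mark the 9 bases of the box. The first set holds the 2 most abundant members, whose boxes are the usual ones, and the 2 members that were lower in coi1-2 than in Col with Al.
TIP1-2, second box, chr3:9722908-9722952, minus strand: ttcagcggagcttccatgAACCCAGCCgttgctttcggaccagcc
TIP1-1, second box, chr2:15446157-15446201, plus strand: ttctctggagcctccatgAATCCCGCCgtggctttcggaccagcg
TIP2-1, second box, chr3:5506606-5506650, plus strand: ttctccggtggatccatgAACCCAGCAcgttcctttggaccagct
PIP2-4, second box, chr5:24375936-24375980, minus strand: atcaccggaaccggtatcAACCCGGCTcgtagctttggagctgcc

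The second set shows members whose box departs from NPA. It is shown because it includes the most abundant NIP and SIP and the pair NIP1-1 and NIP1-2, which went in opposite directions with Al. SIP1-1 has NPT in its first box, SIP1-2 NPC and SIP2-1 NPL. NIP5-1 has NPS and NPV. NIP6-1 shares NPV in the second box, and NIP1-1 and NIP1-2 share NPG.
SIP1-1, first box, chr3:1073798-1073842, minus strand: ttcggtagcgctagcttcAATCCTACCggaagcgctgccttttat
SIP1-2, first box, chr5:6056168-6056212, minus strand: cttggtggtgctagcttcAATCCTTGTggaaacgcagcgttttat
SIP2-1, first box, chr3:21079414-21079458, minus strand: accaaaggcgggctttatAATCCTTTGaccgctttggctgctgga
NIP5-1, first box, chr4:6432351-6432395, minus strand: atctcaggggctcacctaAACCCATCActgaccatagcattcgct
NIP5-1, second box, chr4:6431677-6431721, minus strand: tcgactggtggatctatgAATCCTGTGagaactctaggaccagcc
NIP1-1, second box, chr4:10421896-10421940, minus strand: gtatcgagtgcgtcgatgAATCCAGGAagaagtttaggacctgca
NIP1-2, second box, chr4:10367964-10368008, plus strand: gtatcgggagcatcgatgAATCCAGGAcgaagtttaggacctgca

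The third set is the pair PIP2-2 and PIP2-3, neighbours on chromosome 2, shown because 254 of their sequences of 50 bases occur in both. Their second-box stretches differ at 2 of 45 bases and their first-box stretches at 0, and the longest run that their coding sequences share is 242 bases.
PIP2-2, second box, chr2:15613878-15613922, minus strand: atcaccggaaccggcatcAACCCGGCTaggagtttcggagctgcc
PIP2-3, second box, chr2:15618648-15618692, plus strand: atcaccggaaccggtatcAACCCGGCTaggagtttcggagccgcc

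Levels are given as RPKM, reads divided by transcript length and library size, so they can be compared between genes. The tonoplast channels TIP1-2 and TIP1-1 were the 2 highest members in all 4 libraries. Together they made up 61.2%, 62.4%, 60.8% and 62.2% of the summed aquaporin RPKM in the 4 libraries. TIP1-2 ranked 4th of all loci in both libraries without Al, and 37th and 41st in the libraries with Al (Col, then coi1-2). TIP1-1 ranked 8th and 10th without Al, and 206th and 179th with Al. At the other end, PIP1-1, PIP2-1, SIP1-2 and TIP3-2 stayed below 1 RPKM in all 4 libraries, and TIP3-2 is a channel of the seed vacuole.

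**Figure D1:**
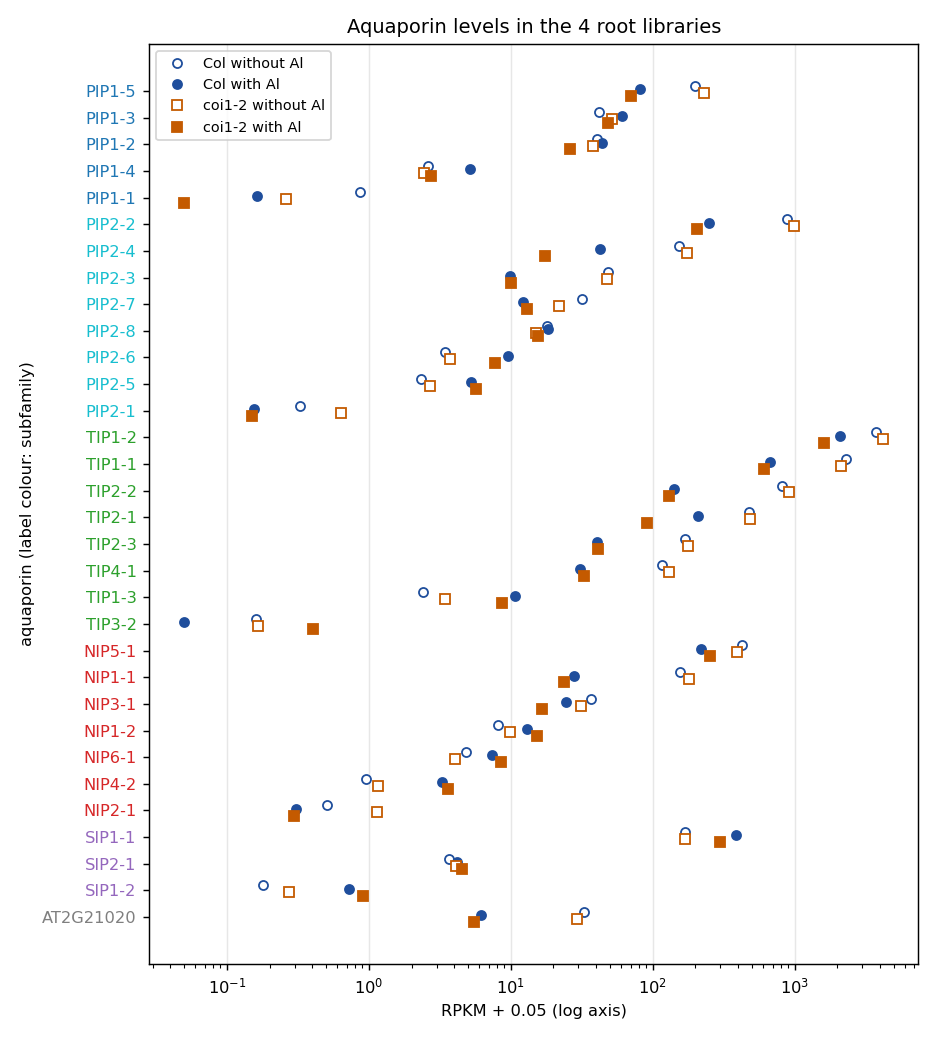
RPKM + 0.05 on a log axis (x) for each of the 32 members (y), grouped by subfamily, with 1 point a library: circles Col, squares coi1-2, open without Al, filled with Al. The open and filled points of TIP2-2, PIP2-2 and NIP1-1 lie far apart with the filled ones lower, and those of SIP1-1 and TIP1-3 lie with the filled ones higher.

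How much of a transcript the reads cover bears on these levels. In 9 members no library covered as much as 20% of the transcript: PIP1-1, PIP1-2, PIP1-3, PIP1-4, PIP2-1, PIP2-7, SIP1-2, SIP2-1 and TIP3-2. For PIP1-3 the covered share was 9.40% in each library although 429, 554, 502 and 458 reads were counted. The other 23 members reached between 27.1% and 99.91% in at least 1 library. Of the 9 barely covered members, 6 had more than 1 isoform listed, and of the other 23 members 0 did. The tables count unique reads per isoform, so the levels of these 9 may be too low, by an amount that was not tested. PIP1-1 and PIP2-1 have 2 RefSeq transcripts each, and 20.2% and 19.9% of their sequences of 50 bases occur in 1 transcript only. The read length is not given in the sources used here.

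**Figure D2:**
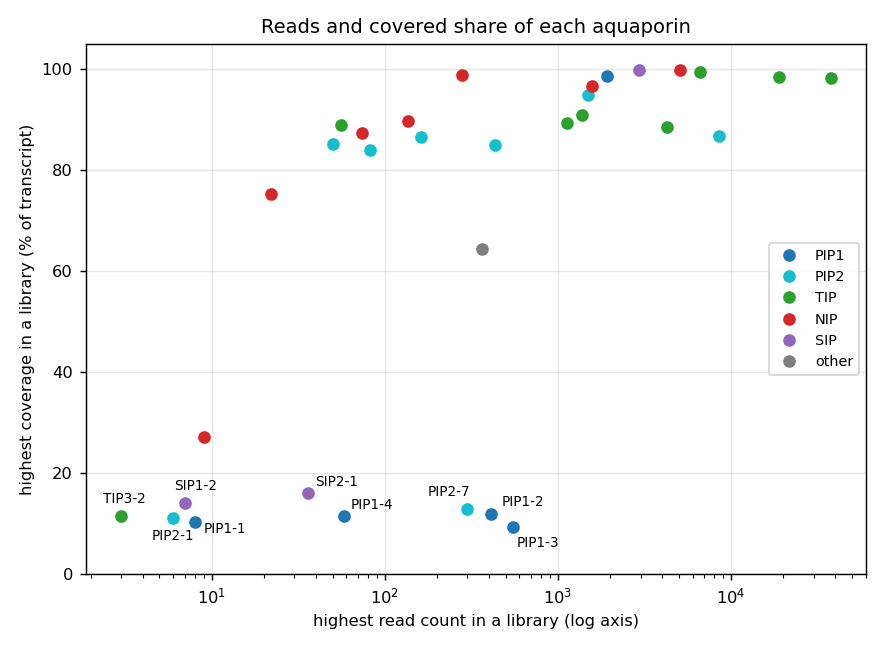
Highest covered share of the transcript in a library (y, percent) against the highest read count in a library (x, log axis), 1 point a member, coloured by subfamily. The 9 named members lie below 20% on the y axis, and PIP1-3, PIP1-2 and PIP2-7 do so with 300 reads or more.

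All 50-base sequences of 23 members occurred at no other locus of TAIR10.1. PIP2-2 and PIP2-3 shared 254 such sequences, which left 80.4% and 78.3% of theirs unique. NIP3-1 and AT2G21020 shared 169. NIP2-1 kept 37.8% and TIP3-2 59.5%. The end of TIP2-1 overlaps AT3G16250 on the other strand, and 93.8% of its sequences were unique. SIP2-1 kept 92.4% and NIP4-2 97.4%. Values of these 9 loci are therefore less certain than those of the other members.

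Summed over the family, aquaporin RPKM was 9918 in Col without Al and 4430 with Al, and 10487 and 3591 in coi1-2. Aquaporin reads were 1.14% of all reads in Col without Al (exact 95% binomial interval 1.13% to 1.15%), 0.519% in Col with Al (0.513% to 0.524%), 1.21% in coi1-2 without Al (1.20% to 1.21%) and 0.422% in coi1-2 with Al (0.417% to 0.427%). Both libraries with Al lay below both without Al. Intervals here and below cover counting error only. In whole roots, fewer cells of a type and less RNA per cell cannot be told apart.

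The make-up of that sum differed with Al too, with a larger part from SIP. The TIP share was 77.1% without Al and 72.2% with Al in Col, and 76.99% and 70.7% in coi1-2. PIP2 made up 11.5% and 7.85% of the sum in Col, and 12.1% and 7.63% in coi1-2. The SIP share was 1.75% and 8.80% in Col, and 1.66% and 8.41% in coi1-2. Nearly all of the SIP share was SIP1-1, which made up 8.69% of the aquaporin RPKM in Col with Al and 8.26% in coi1-2 with Al. These are single libraries, and shares do not depend on the scaling between libraries. The sums include the barely covered members, whose levels may be too low.

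**Figure D3:**
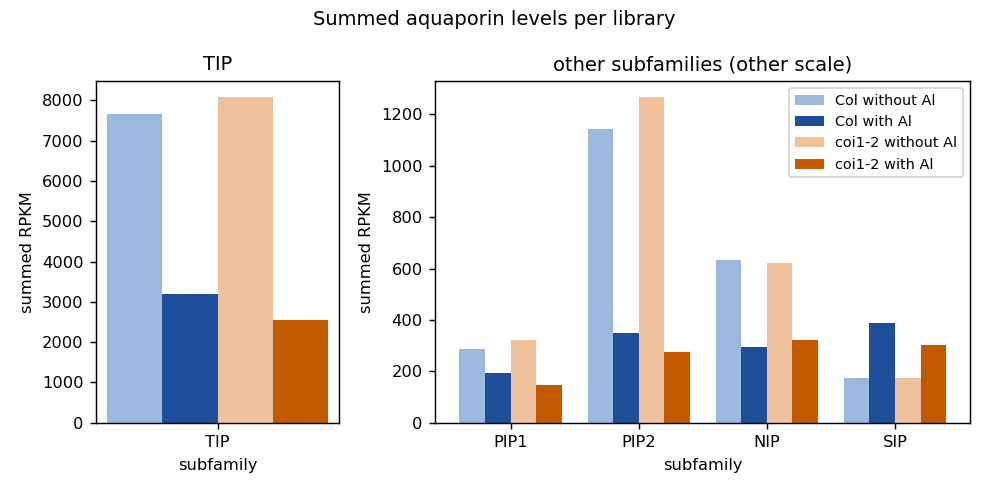
Summed RPKM (y) of the members of each subfamily (x), 1 bar a library, with TIP on its own scale at the left. TIP, PIP2 and NIP bars are lower with Al in both genotypes, and SIP bars are higher.

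The scale matters where levels are compared across libraries. On RPKM as deposited, the median log2 ratio of all 17514 loci past the filter was -0.59 for Al in Col and -0.32 for Al in coi1-2, and scaling by TMM factors moved it to -0.01 and 0.00. On that scale the summed RPKM of PIP1 in Col turned from -0.57 to 0.09 (log2 ratio with against without Al). The sums of TIP, PIP2, NIP and SIP kept their direction in both genotypes. Loci of 3000 bases or more had a median ratio of -1.59 in Col and -0.98 in coi1-2. It was -0.28 and -0.16 for the 3520 loci between the 10th and 90th percentile of member length, 985.3 to 1370.5 bases.

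The question of which aquaporins respond to Al was tested over both genotypes at once. The fit was edgeR's quasi-likelihood model of the summed reads with terms for Al and genotype, with Benjamini-Hochberg adjustment over all 16477 loci tested. Of the 27 members tested, 9 rose and 11 fell. A gene with few reads in 1 treatment can pass the filter on low counts through the other, so its call is a description. Among all loci tested, 25.5% rose and 26.3% fell, beside 33.3% and 40.7% of the members. The median log2 fold change of the members was -0.28, against -0.03 for all loci. By subfamily, 1 of 7 TIPs rose and 5 fell, 2 of 7 PIP2 rose and 3 fell, 2 of 4 PIP1 rose and 1 fell, 3 of 6 NIPs rose and 1 fell, and 1 of 2 SIPs rose. The remaining call was the fall of AT2G21020. Fits that left out 1 library had Al as the only term, so 2 choices changed together. On all 4 libraries that model gave 7 rises and 10 falls, without PIP1-3, PIP1-4 and TIP2-1. It gave 3 rises without Col without Al, 5 without coi1-2 without Al, 7 without Col with Al and 11 without coi1-2 with Al, and the number of falls ranged from 8 to 12.

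The calls differed with level. Of the 9 members with a mean of 100 RPKM or more, 1 rose and 6 fell, whereas of all 1511 loci at that level 52.6% rose and 11.1% fell. Of the 7 between 20 and 100 RPKM, 1 rose and 4 fell, against 38.6% and 17.7% of 4265 loci. Of the 11 below 20 RPKM, 7 rose and 1 fell, against 16.5% and 31.8% of 10701 loci. The rises among these 11 numbered 5 with DESeq2, 4 with limma-trend, 6 with Al as the only term, and in that model 2 without Col without Al and 4 without coi1-2 without Al. Without either of these libraries the falls among the 9 abundant members numbered 3. The limits of 20 and 100 RPKM were chosen after the values were seen. A weak member can pass the filter on low counts through the group where it is high, so the last count is a description.

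**Figure D4:**
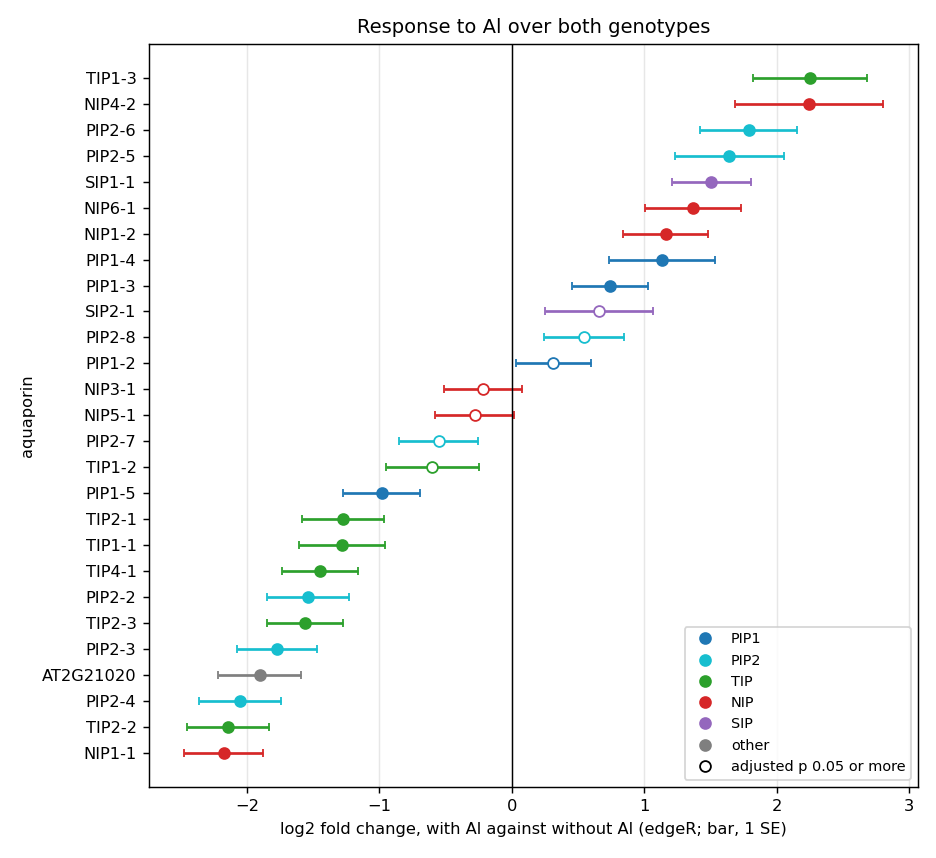
Log2 fold change with against without Al over both genotypes (x, edgeR) for the 27 members tested (y), with bars of 1 SE, filled where the adjusted p was below 0.05. The points run from NIP1-1 at -2.18 to TIP1-3 at 2.25, with 11 filled points below 0 and 9 above.

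Among the tonoplast channels, TIP1-2 (AT3G26520, chr3:9722443-9723815) stood at 3765 RPKM in Col without Al, 2096 with Al, 4235 in coi1-2 without Al and 1624 with Al. Both libraries with Al were the lower ones. The fold change of -0.60 on the log2 scale (SE 0.35) did not pass the test (edgeR adjusted p = 0.142), although the ratios of both genotypes lay below 0. TIP1-2 is a water channel that also passes urea and hydrogen peroxide. It passed as lower with the length offset, with limma-trend and without Col with Al.

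TIP1-1 (AT2G36830, chr2:15445425-15446574), the closest relative of TIP1-2 with 81.1% identity between their coding sequences, was at 2304, 669, 2138 and 611 RPKM. The 2 libraries with Al were well below the 2 without. It fell by 1.28 (SE 0.33, edgeR adjusted p = 0.000460), and the call was lost when either library without Al was left out.

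The TIP2 group comes next, of which TIP2-1 and TIP2-3 are known to pass ammonia as well as water. TIP2-2 (AT4G17340, chr4:9699253-9700410) was at 814, 141, 907 and 131 RPKM, and the 2 treatments did not overlap. It fell by 2.15 on the log2 scale (SE 0.31, edgeR adjusted p = 1.04e-09). TIP2-3 (AT5G47450, chr5:19248249-19249504) was at 168, 40.8, 178 and 41.0 RPKM. It fell by 1.56 (SE 0.29, edgeR adjusted p = 1.46e-06), with nearly the same levels in Col and coi1-2 under either treatment. TIP2-1 (AT3G16240, chr3:5505404-5507050) was at 479.9, 209.8, 482 and 91.9 RPKM. It fell by 1.27 (SE 0.31, edgeR adjusted p = 0.000248), a call that was lost with Al as the only term (adjusted p = 0.0630 with edgeR on all 4 libraries). In that model the call was lost too when either library without Al was left out, with a log2 fold change of -1.10 each time. The mutant with Al held the lowest value.

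TIP4-1 (AT2G25810, chr2:11012506-11014170), a tonoplast channel shown in yeast to carry urea, was at 117, 30.7, 130.1 and 32.5 RPKM. Both genotypes gave nearly equal levels, and it fell by 1.45 (SE 0.29, edgeR adjusted p = 6.90e-06). TIP1-3 (AT4G01470, chr4:625092-625850), known from pollen as a water and urea channel, went the other way. It was at 2.36, 10.6, 3.37 and 8.61 RPKM, from 14, 56, 19 and 47 reads, so it was a weak member even where it was highest. With a log2 fold change of 2.25 (SE 0.43, edgeR adjusted p = 3.00e-06) it was the TIP that rose.

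At the plasma membrane, PIP2-2 (AT2G37170, chr2:15613402-15614857), a main water channel of the root, was at 885, 251, 999 and 204 RPKM. It fell by 1.54 on the log2 scale (SE 0.31, edgeR adjusted p = 1.11e-05). Its neighbour PIP2-3 (AT2G37180, chr2:15617708-15619155), known also as RD28 for its induction by drying, was at 48.5, 9.81, 47.9 and 9.94 RPKM. PIP2-3 fell by 1.77 (SE 0.30, edgeR adjusted p = 2.16e-07). The stretches of the pair printed above are nearly identical. The counts are of unique reads, so reads from shared stretches could be missing from both genes or placed at the wrong gene, which was not tested.

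PIP2-4 (AT5G60660, chr5:24375457-24376989), a plasma membrane water channel found mainly in roots, was at 152, 42.2, 176 and 17.5 RPKM. Here the library of coi1-2 with Al held the lowest level by a wide margin. Over both genotypes it fell by 2.05 (SE 0.31, edgeR adjusted p = 4.80e-09).

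A pair of weak PIP2 genes rose. PIP2-6 (AT2G39010, chr2:16291477-16294034) was at 3.40 RPKM in Col without Al, 9.50 with Al, 3.68 in coi1-2 without Al and 7.70 with Al. This was a log2 fold change of 1.79 (SE 0.37, edgeR adjusted p = 1.54e-05). PIP2-5 (AT3G54820, chr3:20302021-20304010) was at 2.29, 5.17, 2.63 and 5.66 RPKM, with a log2 fold change of 1.64 (SE 0.41, edgeR adjusted p = 0.000381). In both genes each library with Al lay above each without. Both are plasma membrane water channels, and their coding sequences are 76.8% identical. The call of PIP2-5 was lost without Col without Al.

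PIP2-7 and PIP2-8 did not pass, with log2 fold changes of -0.55 and 0.54 at levels of 12.2 to 31.9 and 15.1 to 18.2 RPKM. PIP2-7 passed as lower with the length offset and with limma-trend. PIP2-8 passed as higher without coi1-2 with Al. PIP2-1, known as a main water channel of the root plasma membrane, had 3, 1, 6 and 1 reads here with coverage of at most 11.1%, and was not tested.

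In the PIP1 group, PIP1-5 (AT4G23400, chr4:12220743-12222371) was the highest member at 200.2, 82.1, 229 and 70.1 RPKM. It is the PIP1 with nearly complete coverage, 98.7% at most, and it fell by 0.98 (SE 0.29, edgeR adjusted p = 0.00238). The call was lost when either library without Al was left out. PIP1-3 (AT1G01620, chr1:225665-227302) was at 42.0, 61.1, 51.7 and 48.7 RPKM, so it was higher with Al in Col and slightly lower in coi1-2 as deposited. Over both genotypes it rose by 0.74 on the log2 scale (SE 0.29, edgeR adjusted p = 0.0223) with TMM scaling, under which the ratio in coi1-2 turned from -0.09 to 0.28.

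PIP1-4 (AT4G00430, chr4:185450-187627) was at 2.56, 5.10, 2.38 and 2.69 RPKM, with Col with Al as the highest library. It rose by 1.13 (SE 0.40, edgeR adjusted p = 0.0128). Neither DESeq2 nor limma-trend called PIP1-3 or PIP1-4, and with Al as the only term both calls ended on all 4 libraries (edgeR adjusted p = 0.0556 and 0.0546). PIP1-2 had a log2 fold change of 0.31 and did not pass, except as higher without coi1-2 with Al, and PIP1-1 had 8, 1, 2 and 0 reads. The 4 weaker PIP1 genes are all among the barely covered members, so PIP1-5 is the 1 member of the group whose value rests on nearly the whole transcript.

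Among the NIPs, NIP5-1 (AT4G10380, chr4:6431236-6434822), the boric acid channel that root epidermis needs under boron limitation, was the most abundant at 428, 219.8, 394 and 254 RPKM. Both libraries with Al were lower, but the log2 fold change of -0.28 (SE 0.30) did not pass (edgeR adjusted p = 0.439). On unscaled RPKM, limma-trend called it lower (-0.79, adjusted p = 0.00101). NIP1-1 (AT4G19030, chr4:10421525-10423487), a channel through which arsenite enters roots, was at 155, 28.0, 180.3 and 23.8 RPKM. With -2.18 (SE 0.30, edgeR adjusted p = 1.33e-10) it had the largest fall of the 27 members. The levels of the 2 treatments lay far apart, and both genotypes showed the same order.

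NIP1-2 (AT4G18910, chr4:10366059-10368381), a plasma membrane channel reported to take up Al-malate and to contribute to Al tolerance, rose while its relative NIP1-1 fell. It was at 8.07, 12.9, 9.90 and 15.3 RPKM. Both libraries with Al lay above both without, and it rose by 1.16 (SE 0.32, edgeR adjusted p = 0.00121). The coding sequences of NIP1-1 and NIP1-2 are 84.0% identical, and all 50-base sequences of each were unique to it. The call of NIP1-2 ended with limma-trend (0.62, adjusted p = 0.146), and, with Al as the only term, without either library without Al. The size rule used below for single genotypes called it in neither (log2 ratios 0.65 in Col and 0.60 in coi1-2).

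NIP6-1 (AT1G80760, chr1:30350539-30352208), a boric acid channel of nodal shoot phloem, was at 4.76, 7.38, 4.002 and 8.49 RPKM. It rose by 1.37 (SE 0.36, edgeR adjusted p = 0.000792), and its call too was lost without either library without Al and with limma-trend (0.79, adjusted p = 0.0880). NIP4-2 (AT5G37820, chr5:15050261-15051542), a pollen channel, was at 0.903, 3.22, 1.11 and 3.59 RPKM from 6, 19, 7 and 22 reads. It rose by 2.25 (SE 0.56, edgeR adjusted p = 0.000361), not called by DESeq2 and lost without Col without Al. With 6 and 7 reads without Al, NIP4-2 may have passed the filter on low counts only through the libraries with Al. Its call is therefore a description. NIP3-1 was at 16.6 to 36.7 RPKM with a log2 fold change of -0.22 that did not pass. It passed as lower with the length offset (-0.71, edgeR adjusted p = 0.0110) and with limma-trend (-0.72, adjusted p = 0.0406). NIP2-1, a lactic acid channel induced by low oxygen, had at most 9 reads. The pseudogene AT2G21020 (chr2:9022778-9024211) was at 32.6, 6.14, 29.4 and 5.43 RPKM and fell by 1.91 (SE 0.31, edgeR adjusted p = 6.03e-08).

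Of the SIPs, SIP1-1 (AT3G04090, chr3:1072092-1074160), a water channel of the endoplasmic reticulum, was at 170.1, 385, 169.8 and 296.6 RPKM. Both libraries with Al lay above both without, and Col and coi1-2 were at nearly the same level without Al. It rose by 1.51 (SE 0.30, edgeR adjusted p = 6.96e-06). With Al it ranked 3rd of the family in both genotypes, after 8th in Col and 11th in coi1-2 without Al. It was the only member of 100 RPKM or more that rose, with coverage of at least 99.4% in each library. SIP2-1 was at 3.65, 4.11, 4.07 and 4.46 RPKM with a log2 fold change of 0.66 (SE 0.41, edgeR adjusted p = 0.172), which did not pass. SIP1-2 had 1, 5, 2 and 7 reads and was not tested.

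Taking each genotype alone, members were called higher or lower where RPKM + 0.5 differed at least 2-fold and the exact 95% counting interval of the reads excluded no change. In Col, 5 of 28 members past the filter were higher and 12 lower with Al, against 11.4% and 35.8% of all loci. In coi1-2, 2 were higher and 12 lower, against 9.37% and 23.2%. The same 11 members were lower in both genotypes, and NIP4-2 and TIP1-3 were higher in both. The share of all loci called alike in both genotypes is not given here, so these counts describe the members only. PIP2-7 was lower in Col alone by this rule, and TIP1-2 in coi1-2 alone, with no test of the difference. Under TMM scaling the counts were 9 higher and 9 lower in Col, against 22.2% and 20.5% of all loci, and 6 and 12 in coi1-2, against 14.8% and 14.7%.

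The median log2 ratio of the 28 members was -0.70 in Col, 0.12 below the median of all loci, and -0.81 in coi1-2, 0.48 below it. TIPs had the lowest subfamily medians of the 4 subfamilies, -1.78 in Col and -1.98 in coi1-2. NIP2-1 passed the filter only through coi1-2 without Al, where it reached 1.08 RPKM.

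**Figure D5:**
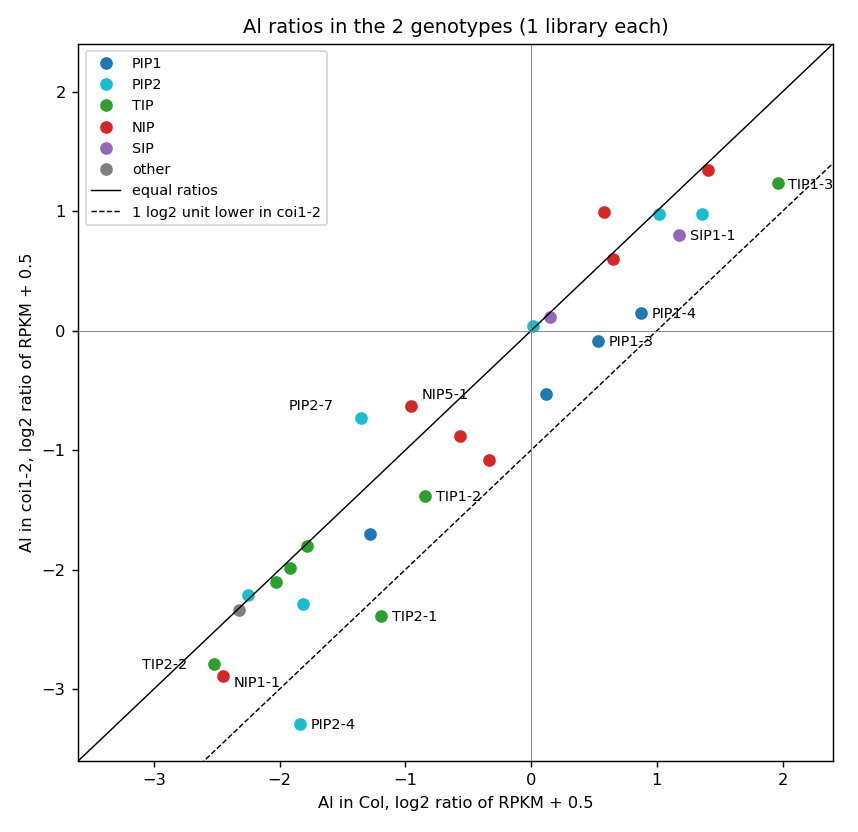
Log2 ratio of RPKM + 0.5 with against without Al in coi1-2 (y) against Col (x), 1 point for each of 28 members, coloured by subfamily. The solid line marks equal ratios, and PIP2-4 and TIP2-1 lie beyond the dashed line 1 log2 unit below it.

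Between the genotypes, members were called only in the libraries with Al. Over both treatments and without Al, few of all loci were called either, so the counts of 0 there are near that share. Over both treatments edgeR called 0 of 27 members higher and 0 lower in coi1-2, against 0.158% and 0.431% of all loci. At an unadjusted edgeR p below 0.05 there were 3 members, TIP2-1, PIP2-4 and PIP1-2, all lower in coi1-2. The share of all loci at that level is not given here, so this count is a description. DESeq2 and limma-trend also called 0, with 1 member each at that unadjusted level. Without Al, 0 members differed by the size rule in either direction, where 1.43% of loci were higher and 1.34% lower in coi1-2.

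With Al, 0 members were higher and 2 lower in coi1-2 than in Col, where 7.87% of loci were higher and 1.87% lower. These were PIP2-4, at 42.2 RPKM in Col and 17.5 in coi1-2 with Al, and TIP2-1, at 209.8 and 91.9. The log2 ratio was -1.24 for PIP2-4 (95% counting interval -1.56 to -0.98) and -1.19 for TIP2-1 (-1.32 to -1.07). Without Al the same genes had ratios of 0.21 and 0.01 between the genotypes. With TMM scaling 4 members were lower, PIP1-2 and PIP1-4 in addition, and the shares of all loci turned round to 3.04% higher and 4.65% lower.

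The difference of the 2 Al ratios, coi1-2 minus Col, was called for the same pair, 0 members higher and 2 lower, against 7.01% and 1.91% of all loci. It was -1.45 for PIP2-4 (95% counting interval -1.75 to -1.15) and -1.19 for TIP2-1 (-1.33 to -1.05). Of the 28 members, 23 had a difference below 0 and 5 above, and the share of all loci below 0 is not given here. The median of the members was -0.29, while that of all loci was 0.25. With TMM scaling these medians were -0.59 and -0.005. That scaling gave 3 members lower, PIP1-4 in addition, and the shares of all loci turned round to 2.73% higher and 4.31% lower. No replicate bears on these values, since the ratio rests on 1 library for each group.

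Other genes around the channels gave mixed counts. Beside each list here and below, 25.5% of all loci tested rose and 26.3% fell. Of 14 tested regulators of aquaporin traffic, phosphorylation and turnover, 4 rose and 2 fell. TSPO, a membrane protein that takes PIP2-7 to degradation, was at 0.123, 4.01, 0.129 and 2.66 RPKM and rose by 5.08 (SE 0.76, edgeR adjusted p = 3.01e-09). Its reads were 1, 29, 1 and 20, so it may have passed the filter on low counts only through the libraries with Al. LIP5, a part of the endosomal sorting route, was at 66.4, 156, 71.0 and 160.1 RPKM and rose by 1.72 (SE 0.29, edgeR adjusted p = 1.86e-07). RMA3, a ubiquitin ligase of the endoplasmic reticulum, was at 51.1, 103, 49.0 and 97.1 RPKM and rose by 1.51 (SE 0.29, edgeR adjusted p = 2.59e-06). The syntaxin SYP121 rose too, and the kinases CPK7 and BSK8 fell.

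Of the 9 tonoplast pumps and channels, 2 rose (AVP1 and VHA-C) and 1 fell (VHA-A), beside 1 and 5 of the 7 TIPs. VHA-C, a subunit of the vacuolar proton pump, rose by 0.92 (SE 0.29, edgeR adjusted p = 0.00530), from 179.6 to 232 RPKM in Col and from 157 to 212 in coi1-2. AVP1, the vacuolar pyrophosphatase, rose by 0.70 (SE 0.30, edgeR adjusted p = 0.0376).

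All 3 genes listed for Al tolerance rose. ALMT1, the malate channel of Al resistance, was at 0.0819, 8.57, 0.258 and 20.1 RPKM, with a log2 fold change of 6.78 (SE 0.52, edgeR adjusted p = 7.41e-26). With 1, 93, 3 and 227 reads, ALMT1 too may have passed the filter only through the libraries with Al. ALS3 rose by 2.09 (SE 0.31, edgeR adjusted p = 3.72e-09), and ALS1, a tonoplast transporter placed downstream of NIP1-2, by 0.79 (SE 0.29, edgeR adjusted p = 0.0185). ALS1 was at 12.9 and 10.2 RPKM in Col, lower with Al as deposited, and at 13.2 and 24.0 in coi1-2.

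Of 8 transporters of boron, ammonium and urea, 2 rose and 5 fell. BOR1, the boron exporter to the xylem, had 0 reads in Col with Al and was at most 0.657 RPKM elsewhere. DUR3, the urea carrier, was at 22.6, 3.37, 31.2 and 5.23 RPKM and fell by 2.15 (SE 0.31, edgeR adjusted p = 6.12e-10). AMT2;1, an ammonium transporter, was at 1.12, 4.37, 1.02 and 6.47 RPKM and rose by 2.82 (SE 0.42, edgeR adjusted p = 4.07e-09). AMT1;1 rose, and AMT1;2, BOR2 and BOR4 fell.

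Marker genes of root cell types moved with Al as well, and their part in the aquaporin values was not tested. Of 7 endodermis markers tested, 0 rose and 6 fell, and their summed RPKM was 885, 110.4, 927 and 182. Of 6 root hair markers 5 fell, and the sum was 787, 409, 827 and 206 RPKM. Most of that sum was PRP3, at 545, 353, 593 and 171 RPKM, the marker that did not pass. With Al, PRP3, EXPA7, EXPA18 and RSL4 were lower in coi1-2 than in Col. COW1 and RHD6 were higher there, at 1.91 and 9.34 RPKM against 0.782 and 8.15 in Col. The order of the sum was therefore not that of every marker. The order of the 4 libraries was that of the root hair sum, lowest in coi1-2 with Al, for 7 of the 27 members tested, PIP2-4, TIP2-1, PIP2-2, TIP1-2, TIP2-2, NIP1-1 and PIP1-5, against 4.9% of all loci tested. It was that of the endodermis sum for 2, TIP2-3 and TIP4-1, against 26.4%. Of 4 xylem markers 1 fell, of 2 phloem markers 1 rose and of 3 root cap markers 2 fell.

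Of 6 genes of green shoot tissue, which the root label would leave near 0, 5 were tested and all 5 rose. PSBS, not tested, stayed low at 0.447, 0.367, 0.763 and 0.788 RPKM from 4, 3, 6 and 6 reads. The summed RPKM of the 6 genes was 43.2 in Col without Al, 344 with Al, 57.5 in coi1-2 without Al and 225 with Al. LHCB1.3, a light-harvesting protein, was the highest at 29.7, 219, 33.3 and 144 RPKM. Of 7 seed storage genes 6 had no read, and their sum was at most 3.53 RPKM.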

How the data were processed

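Per the labels' protocols, root RNA was selected on oligo(dT) beads, fragmented, primed with random hexamers and read by Illumina sequencing. No step that keeps strand is named, so antisense reads cannot be told apart. The deposited counts are unique reads per transcript, per the file headers. The deposited RPKM are those reads over length and library total. Coverage was deposited as a percent of transcript length. Aligner and build: not given in the sources used here. Among 23381 loci, 23189 matched TAIR10.1 by locus code and 23185 overlapped the gene there, all 32 members among them.

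Reads and RPKM were summed per locus over isoforms, and a transcript not listed was taken as 0 reads. The test was edgeR 4.0.16 (R 4.3.3) with TMM factors of 0.753 to 1.20, filterByExpr and additive terms for Al and genotype, with 1 residual degree of freedom and a common dispersion of 0.0385. Nothing names separate cultures within a group, so the p-values measure no spread between replicates. They reflect only what spread the model leaves, which may be technical. For each locus that spread is the difference of the Al responses of the 2 genotypes, along with any noise of the libraries. The prior degrees of freedom were 192.8, so the spread behind each p-value was mostly pooled over loci. SE is the log2 fold change over the root of its F value. Comparisons of 2 libraries used loci with at least 1 RPKM in 1 library, a pseudocount of 0.5 and Clopper-Pearson intervals. The interval of a difference of ratios is a normal approximation. PCR copies are not independent molecules. Scripts were tested on simulated counts.

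The members, lists and tests were chosen with earlier results of these data known. Values in all 4 libraries are given for the 2 highest members of each group, the 8 largest rises and falls, members called between genotypes and NIP1-2. Some roles are from studies of other systems. Alternatives were DESeq2 1.42.0, limma 3.58.1, other scaling, filters, pseudocounts and intervals, a length offset, Al as the only term and each library left out.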

Additional observations from a re-analysis of the deposited data

How the results depend on the processing

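No called value turned from higher to lower or the reverse under the alternatives. Members that rose with Al over both genotypes numbered 9, against 5 with limma-trend. With Al as the only term 7 rose and 10 fell on all 4 libraries, and in that model 3 to 11 rose and 8 to 12 fell with 1 library left out, so 2 choices changed together there. DESeq2 gave 6 rises and 11 falls, limma-trend 5 and 15, adding NIP3-1, NIP5-1, TIP1-2 and PIP2-7, and the length offset 9 and 14, adding NIP3-1, TIP1-2 and PIP2-7. In Col, members higher with Al numbered 5, against 9 with TMM factors, 9 with median-of-ratios factors and 3 with the stricter counting interval. In coi1-2 they numbered 2, against 5 with a pseudocount of 0.1, 1 with a filter of 5 RPKM, 6 with TMM factors, 6 with median-of-ratios factors and 1 with the stricter counting interval. Members lower in coi1-2 with Al numbered 2, against 4 with TMM factors and 4 with median-of-ratios factors. The log2 ratio of the summed aquaporin RPKM was -1.16 in Col, or -0.50 with TMM factors, and -1.55 in coi1-2, or -1.18. Between genotypes with Al it was -0.30, or -0.60 with TMM factors. Beyond what the construction of each alternative shows, the cause was not tested. No paired analysis was possible because each group holds 1 library with no replicate number. PIP1-1, PIP2-1, SIP1-2, TIP3-2 and NIP2-1 had fewer than 10 reads in each library. The part of depth and of counting unique reads in this was not tested.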

Other observations

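Genes of water deficit and abscisic acid response, and of low oxygen, stand apart from the channels but are often read beside them. Of the 12 genes in the first list 7 were tested, of which 5 rose and 1 fell. RD29B, RAB18 and P5CS1, with at most 3 reads in a library, ABI2 and ABF3 were not tested. COR47, the highest of the list, did not pass, at 1752, 1032, 1824 and 1381 RPKM. Beside both lists, 25.5% of all loci tested rose and 26.3% fell. HAI1, a phosphatase of abscisic acid signalling, was at 0.393 RPKM in Col without Al, 5.39 with Al, 0.165 in coi1-2 without Al and 4.34 with Al, and rose by 4.62 on the log2 scale (SE 0.54, edgeR adjusted p = 1.61e-13). With 5, 61, 2 and 51 reads, HAI1 may have passed the filter on low counts only through the libraries with Al. RD22 rose by 1.77 (SE 0.40, edgeR adjusted p = 8.67e-05) and NCED3, the enzyme that limits abscisic acid synthesis, by 1.57 (SE 0.31, edgeR adjusted p = 4.67e-06). ABI1 and RD29A rose and ERD10 fell. As deposited, RD29A was lower with Al in Col, at 45.3 and 38.7 RPKM, and higher in coi1-2, at 42.9 and 62.0. PIP2-3 carries the older name RD28 of the same kind and fell. Of 6 low-oxygen genes 3 rose and 0 fell. They were SUS1, PDC1 and AT4G17260, a lactate or malate dehydrogenase.

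Short motifs were counted in the 250 bases before each gene start of TAIR10.1, on both strands. The abscisic acid element core ACGTG was found in 1 of the 9 members that rose and 2 of the 11 that fell, against 21.8% of 33054 promoters. The G-box CACGTG, which holds that core, was found in 0 and 0, against 5.86%. TTGACC was found in 2 and 0, against 11.8%, and GCCGCC in 0 and 0, against 1.88%. A match is a description of letters in this window.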
